A study of Mus musculus with 30 samples.

Results

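Interferon-stimulated genes, the genes that a cell switches on when interferon binds its receptors, were examined in the ascending and the descending colon of the mouse. The members were taken by symbol from a list of 39 genes, chosen with earlier results of these data known. Of these, 38 had a row in the deposited table of 14475 genes, and Mx2 was not analysed here. The series holds RNA-seq of 30 colon pieces after removal of ribosomal RNA, with 7 control and 8 mutant pieces from each region. All mice were female, and controls were littermates of the mutants in 3 cages that shared a microbiota. The mutants, labelled TM-DKOAsc, lacked C3GnT (B3gnt6) in the germline and carried a floxed C1galt1 allele with VillinCre-ERT2, a Cre that tamoxifen activates. Both genes encode enzymes that start the core 1 and core 3 O-glycans of mucus. Mutants and control littermates alike received 0.5 mg tamoxifen (about 20 mg/kg) daily for 5 days and were analysed 5 or 10 days later, and the labels do not say which interval belongs to which library.

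In cage A, with 2 controls and 3 mutants, the strain label was 'C57BL/6 Background' and the age 3.4 months. Cages B (2.6 months, 3 controls and 2 mutants) and C (3.2 months, 2 controls and 3 mutants) were labelled 'Mixed BL/6-129SvJ'. The labels' growth protocol describes a mixed background for mutants and littermates, which differs from the strain label of cage A. Cage, strain label and age cannot be told apart for cage A. Libraries are called below by region, genotype, cage letter and replicate number, as in ascending control B1. The Villin promoter confines Cre to gut epithelium, whereas the pieces were bulk tissue, in which fewer cells of a type and less RNA per cell cannot be told apart. Values are FPKM, the reads of a gene divided by its length and by the mapped reads of the library. Nothing in the labels ties a pair of libraries to separate animals, so p-values measure the spread between these libraries.

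Type I interferons signal through Ifnar1 and Ifnar2, and type III interferons, which act mainly on epithelia, through Ifnlr1 and Il10rb. Both receptor pairs activate Stat2, which joins Irf9 in a complex that binds a DNA element called the ISRE in the promoters of the responding genes. The products include sensors of viral RNA and DNA, enzymes that degrade RNA or block translation, and a set of signal proteins and brakes that set how strongly the cell responds the next time. In the gut, part of this programme is active without infection.

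Depth is not in the files and was estimated from the spacing of low FPKM values at 1.43 to 8.85 M reads, with the lowest estimates (1.43 to 1.59 M) in the ascending mutants of cage A. C1galt1 spanned 21.49 to 45.71 FPKM in ascending controls and 18.26 to 34.3 in ascending mutants. B3gnt6 spanned 0.11 to 19.52 FPKM (median 0.45) and 0.0 to 0.53 (median 0.0), and was low in most ascending controls. In descending controls and mutants B3gnt6 was at 0.0 to 0.43 and 0.0 to 0.06 FPKM. Neither gene separated the genotypes fully. Epithelial markers were abundant in every piece (summed FPKM of 12 genes from 4460 to 9655). A position check, with genes chosen after their values were seen, set 1 library apart. The distal patterning gene Hoxd13 was listed at 0.0 FPKM in all 15 ascending libraries and at 41.13 to 123.42 in 14 of the descending ones, but at 0.38 in descending control A2. That library also had less Hoxb13 (44.48 against 146.49 to 341.06 FPKM) and more Cdx2 (73.33 against 2.79 to 47.57) than the other descending libraries. It lay outside the ascending ranges too (Hoxb13 0.0 to 4.55 FPKM, Cdx2 118.91 to 207.81). Descending control A2 was thus near the ascending libraries for Hoxd13 and between the regions for Hoxb13 and Cdx2. The results that rest on it are given with and without it below.

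The ISRE was looked for in the promoters, since it is the element through which interferon acts on these genes. RefSeq windows on GRCm38.p6 from 250 bases upstream of the start site were held for 29 of the 38 members. The letters searched were TTTC repeated after a spacer of 2 bases, or GAAA and GAAA with the same spacer on the other strand. They were present for 11 of these 29 members (37.9%), against 374 of 11337 genes of the deposited table (3.3%). A gene with several windows counted if any of them held the letters. The letters TTCNNNGAA of the GAS element, through which interferon-gamma acts, were present in 4 of 29 (13.8%) and in 7.25% of the table's genes. A match of letters is a description and not evidence of binding. The 120 bases upstream of 5 start sites are shown with the ISRE letters in capitals, because these genes span the range of the regional differences from the widest to one that did not pass the test. They lie at chr4:156200819-156200938 (Isg15, minus strand), chr19:34640769-34640888 (Ifit1, plus strand), chr5:120777660-120777779 (Oas3, minus strand), chr5:120907526-120907645 (Oas1a, minus strand) and chr5:120887614-120887733 (Oas1g, minus strand).
Isg15: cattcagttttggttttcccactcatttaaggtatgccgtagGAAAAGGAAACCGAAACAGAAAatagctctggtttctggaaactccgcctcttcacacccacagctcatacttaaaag
Ifit1: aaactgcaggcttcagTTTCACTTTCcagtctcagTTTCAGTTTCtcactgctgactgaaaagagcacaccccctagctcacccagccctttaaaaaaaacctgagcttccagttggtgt
Oas3: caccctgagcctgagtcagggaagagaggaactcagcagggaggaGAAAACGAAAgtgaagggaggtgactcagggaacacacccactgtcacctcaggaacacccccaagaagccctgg
Oas1a: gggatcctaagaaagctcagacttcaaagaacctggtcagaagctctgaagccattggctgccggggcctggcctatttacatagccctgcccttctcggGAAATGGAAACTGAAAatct
Oas1g: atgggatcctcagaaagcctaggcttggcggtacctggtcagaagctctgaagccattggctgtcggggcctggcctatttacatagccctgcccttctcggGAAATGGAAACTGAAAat

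In Isg15, 3 overlapping matches begin 78 to 66 bases before the start site, and in Ifit1 2 separate matches begin at 104 and 85 bases. Oas3 holds 1 match, at 75 bases. Oas1a and Oas1g hold a pair of overlapping matches that read the same in both genes and lie within 20 bases of the start. Those 2 genes are neighbours on chromosome 5, and 57.571% of the 50-base words of Oas1a and 45.719% of those of Oas1g also occur elsewhere in the annotated transcripts, mostly in each other. Values of both are therefore uncertain, as are those of Ifit3 (51.238% shared with Ifit3b). Shares were 12.481% for Herc6, 11.634% for Rtp4 and 7.135% for Ifit1. Several members are clustered in the genome. Ifit2, Ifit3 and Ifit1 follow each other on chromosome 19. Oas2, Oas3, Oas1g and Oas1a as well as Oasl2 and Oasl1 lie on chromosome 5. Rsad2 and Cmpk2 are 12751 bases apart on chromosome 12. Dtx3l and Parp9 overlap head to head by 682 bases on chromosome 16, and reads within that overlap cannot be assigned without strand information.

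The main pattern was regional: interferon-stimulated genes were lower in the descending than in the ascending colon of controls. With cage as a covariate, 35 of the 38 members fell towards the descending colon and none rose (limma on log2(FPKM + 1), Benjamini-Hochberg adjusted p under 0.05 over 12515 genes). Across all genes, 37.9% passed in either direction and 12.8% were lower in the descending colon. Because the list was chosen with earlier results known, these shares are a description and not a test of it. All 38 differences lay below 0, with a median of -1.32 on the log2 scale against 0.14 over all genes tested. The ratio of mean FPKM, ascending over descending, ranged from 1.09 to 15.1 with a median of 3.25, and exceeded 5 for 12 members. Without descending control A2, 35 members passed, the median was -1.63, and 15.3% of all genes were called lower.

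**Figure D1:**
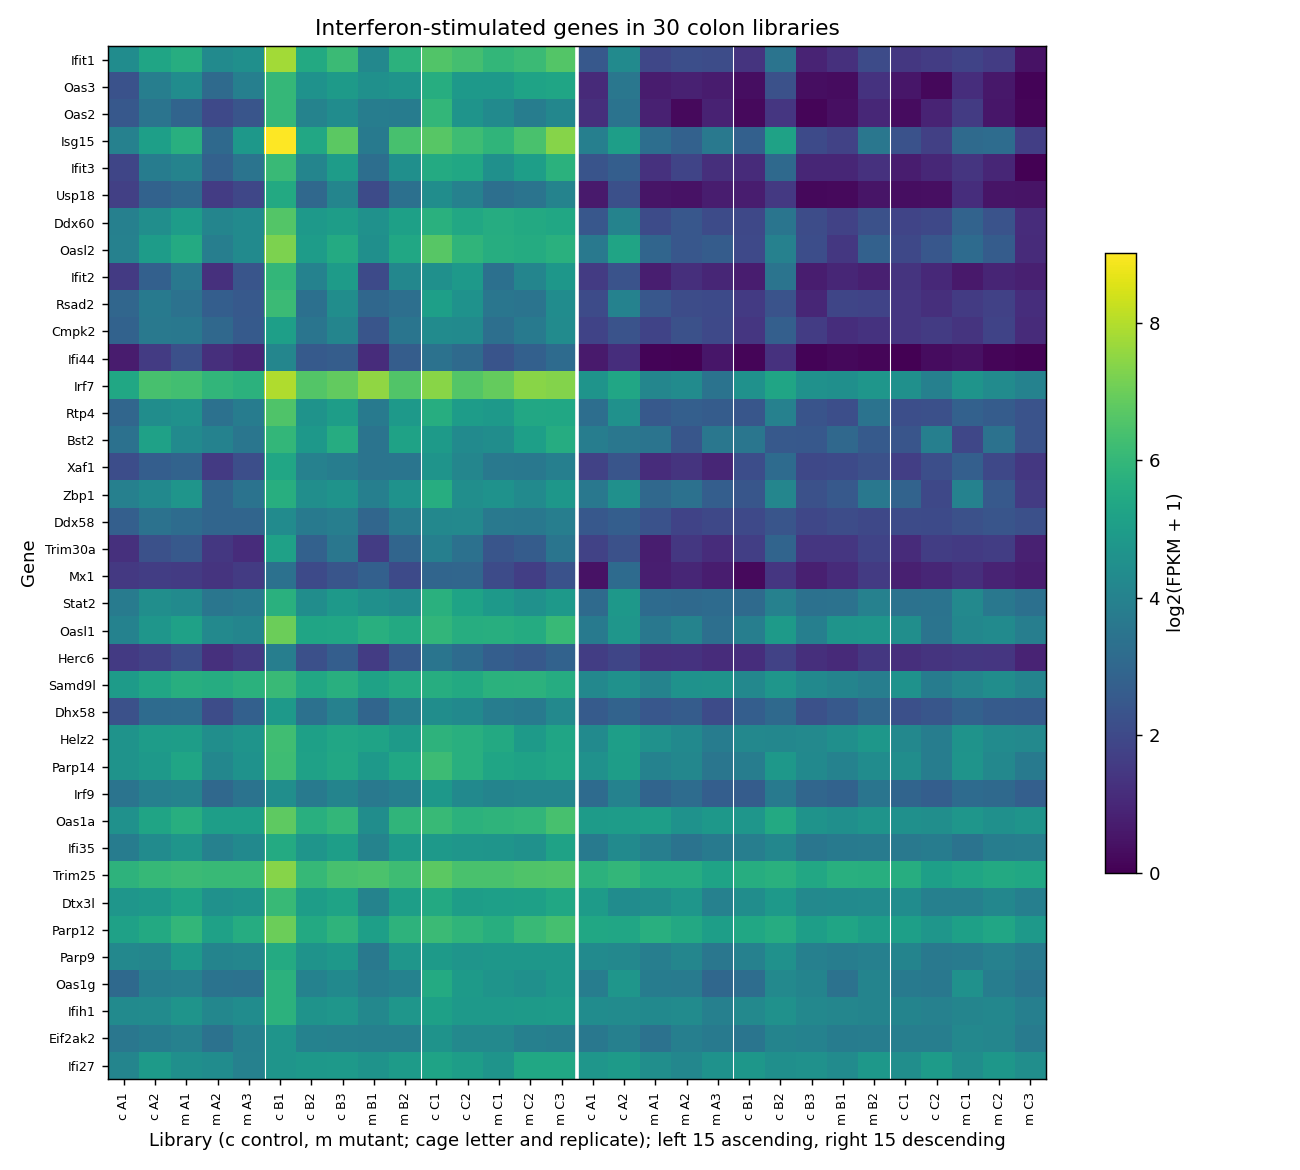
Each cell is log2(FPKM + 1) of 1 gene (rows, ordered by the regional difference in controls) in 1 library (columns, by region, cage and genotype; c control, m mutant). The left 15 ascending columns are brighter than the right 15 for the upper rows, ascending control B1 is the brightest column with Isg15 at 517.9 FPKM, and the lowest rows, among them Eif2ak2 and Ifi27, look alike on both sides.

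Among the antiviral effectors, Ifit1 encodes a protein that binds viral RNA caps. It spanned 19.85 to 218.24 FPKM in ascending controls (median 70.23) and 0.88 to 18.78 in descending controls (median 2.03). Every ascending control lay above every descending one, although the highest descending library, A2, came within about 1 FPKM of the lowest ascending one. The log2 difference was -3.77 ± 0.58 (SE, limma adjusted p = 0.000228), the widest in controls. Cmpk2, a nucleotide kinase whose gene lies next to that of the radical enzyme viperin (Rsad2), spanned 6.1 to 32.92 and 1.67 to 5.65 FPKM, again without overlap (-2.14 ± 0.30, limma adjusted p = 0.000116). Isg15, a ubiquitin-like protein attached to other proteins, spanned 14.50 to 517.9 FPKM with a median of 74.3, against 2.26 to 35.67 with a median of 5.77. Here descending controls A2 and B2, at 32.27 and 35.67 FPKM, overlapped the ascending controls A1 and A2 at 14.50 and 33.23. Of the 10 effectors with a row 9 fell, and the exception was Eif2ak2, the kinase PKR that blocks translation. It spanned 10.83 to 24.93 and 10.29 to 15.8 FPKM, with most libraries overlapping (-0.29 ± 0.15, limma adjusted p = 0.146). Mx1, a GTPase that is defective in many inbred mouse strains, had a low level throughout, at 1.81 to 9.31 and 0.17 to 7.8 FPKM.

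Members of the 2',5'-oligoadenylate synthetase family make the messenger that activates RNase L. In controls 5 of 6 fell, with family differences from -3.40 (Oas3) to -0.58 (Oas1g). Oas2 spanned 4.56 to 62.57 FPKM in ascending controls (median 19.74) and 0.09 to 9.94 in descending controls (median 0.88). Only descending control A2, at 9.94 FPKM, reached into the ascending range. Oas3 spanned 3.78 to 63.1 and 0.13 to 10.96 FPKM, with the same library as the highest descending value. Oas1a fell less, from 57.3 ± 26.9 to 28.0 ± 7.61 FPKM (SD, n = 7 each). Its near copy Oas1g, whose promoter holds the same ISRE letters, spanned 7.38 to 54.18 and 8.26 to 25.59 FPKM and did not pass (-0.58 ± 0.37, limma adjusted p = 0.23).

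All 5 sensors and their partners fell. Ddx58 (RIG-I), a sensor of viral RNA ends, spanned 5.69 to 19.26 FPKM in ascending and 2.79 to 5.49 in descending controls, without overlap (-1.56 ± 0.23, limma adjusted p = 0.000145). Zbp1, a sensor of left-handed nucleic acid that can start necroptosis, spanned 14.37 to 49.41 and 2.91 to 21.79 FPKM. Its 2 highest descending libraries, A2 at 21.79 and B2 at 16.44, lay inside the ascending range. Ifih1 (MDA5), a sensor of long double-stranded RNA, fell least among the sensors, from 29.1 ± 12.4 to 18.2 ± 2.64 FPKM (n = 7 each).

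Signal genes of the response fell as well, 3 of 3. Irf7, the factor that amplifies type I interferon production, spanned 40.89 to 242.48 FPKM in ascending controls (median 97.08) and 14.19 to 39.62 in descending controls (median 22.56). The ranges did not overlap (-2.04 ± 0.32, limma adjusted p = 0.000229). Stat2 spanned 12.42 to 52.54 and 7.71 to 26.73 FPKM, with descending controls A2 (26.73) and B2 (14.68) above the lowest ascending library. Usp18, which removes Isg15 and dampens receptor signalling, had the largest ratio of means, 15.9 ± 13.9 against 1.05 ± 1.26 FPKM (n = 7 each).

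The 4 genes of the ADP-ribosylation group (Parp9, Parp12, Parp14 and the ubiquitin ligase Dtx3l, which pairs with Parp9) all fell, with a median log2 difference of -0.69. Of the 9 remaining members 8 fell. Samd9l, which restrains poxviruses and cell growth, spanned 29.71 to 67.86 FPKM and 12.72 to 25.93 FPKM with no overlap (-1.17 ± 0.17, limma adjusted p = 0.000117). It moved by a modest ratio of 2.32, yet its libraries were more tightly grouped than those of genes with larger ratios. Ifi27, a mitochondrial interferon-inducible protein, was the exception at 16.16 to 36.55 and 20.9 to 29.97 FPKM (-0.10 ± 0.15, limma adjusted p = 0.604).

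**Figure D2:**
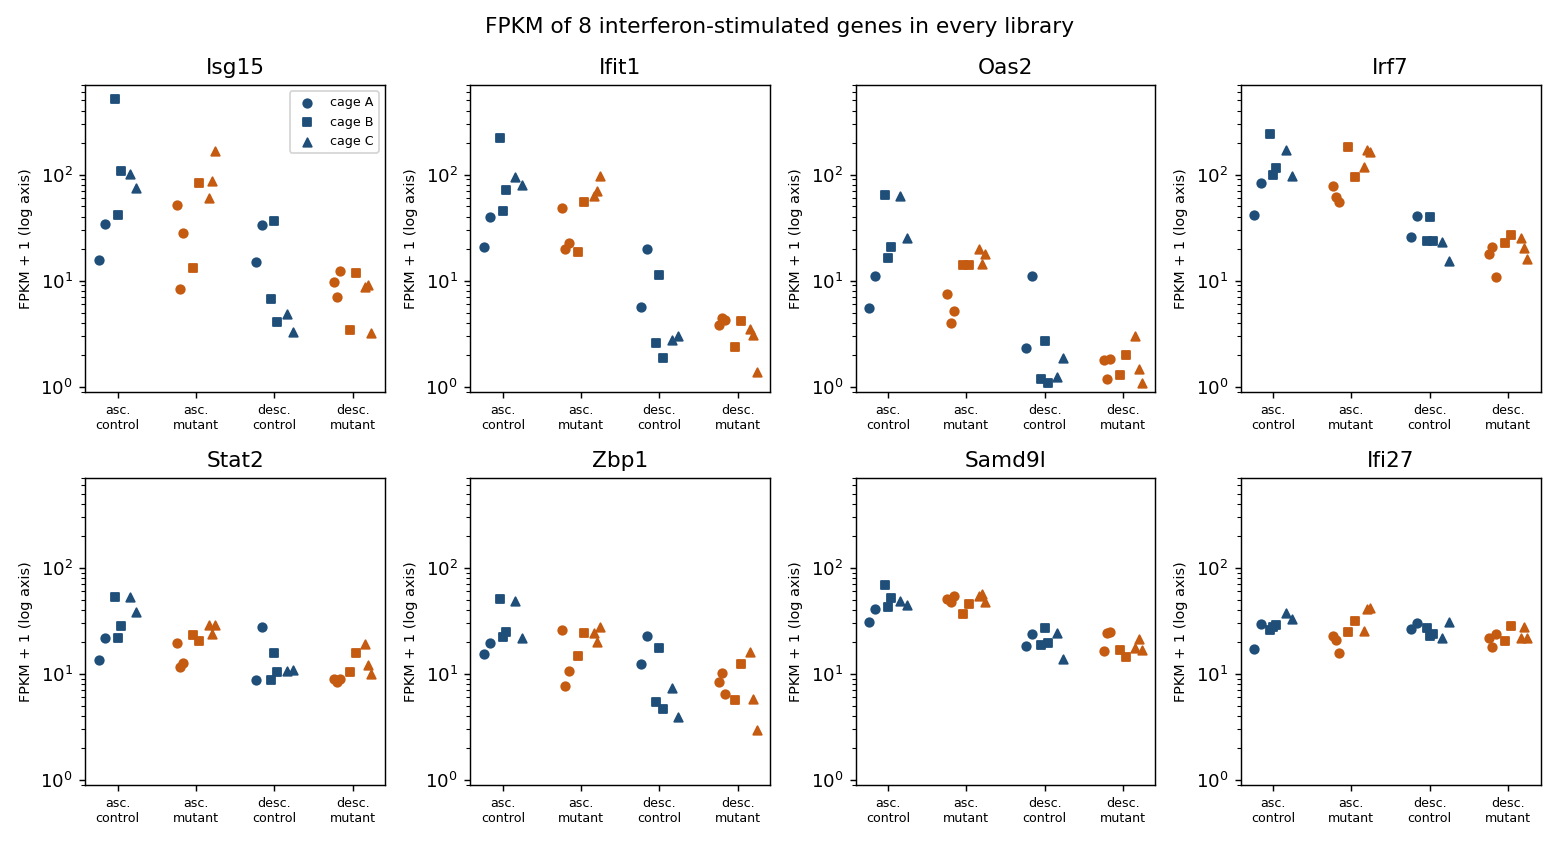
FPKM + 1 (log axis) of 8 members in each library, by region and genotype (blue control, orange mutant; circle cage A, square cage B, triangle cage C). Irf7 and Samd9l show no overlap between regions, Oas2 overlaps through 1 descending control of cage A at 9.94 FPKM, and Ifi27 lies at 14.64 to 40.37 FPKM in all groups.

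In controls 5 of 38 members (Ifit1, Irf7, Samd9l, Ddx58 and Cmpk2) had every ascending library above every descending one, where 3.83% of all genes did. Without descending control A2 the count was 14 of 38 (6.73% of all genes). By cage the picture differed. In cage A the median log2 difference of controls was -0.12, with 25 members lower and 13 higher in the descending colon, and against descending control A1 alone it was -0.50, with 29 lower and 9 higher. In cages B and C all 38 members were lower, with medians of -1.81 and -2.06. Without cage B the fit called 7 members and 16.4% of all genes, and without cage C 13 members and 20.5%. Without cage A it called 36 members and 36.9% of all genes, with a member median of -1.94.

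The mutants gave the same regional order in libraries of their own. Again 35 of 38 members were lower in the descending colon (background 44.0% called in either direction, 14.3% lower in the descending colon), and these were the same 35 as in controls. The median log2 difference was -1.20 against 0.16 over all genes, and the ratio of means ran from 1.05 to 34.6. Oas3 had the smallest adjusted p and the largest ratio. It spanned 7.73 to 37.99 FPKM in ascending mutants (median 23.2) and 0.06 to 1.49 in descending mutants (median 0.61), so the groups were well apart (-3.80 ± 0.24, limma adjusted p = 2.25e-09). Ifit1 spanned 17.73 to 96.03 and 0.37 to 3.49 FPKM, also without overlap (-3.72 ± 0.35, limma adjusted p = 2.42e-07).

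Irf7 in mutants spanned 54.24 to 180.8 FPKM and 9.89 to 25.74 (-2.44 ± 0.19, limma adjusted p = 2e-08), and Samd9l 35.98 to 55.1 and 13.49 to 23.56 (-1.39 ± 0.11, limma adjusted p = 2.07e-08). Neither overlapped between regions. Ddx60, a helicase described as a partner of RIG-I, spanned 16.34 to 46.42 and 1.22 to 6.29 FPKM, without overlap (-2.83 ± 0.23, limma adjusted p = 4.62e-08). Oas2 spanned 3.02 to 19.01 and 0.09 to 1.98 FPKM, which left a narrow gap. Isg15 spanned 7.37 to 164.88 and 2.19 to 11.41 FPKM and overlapped through ascending mutant A2, the lowest ascending library for that gene. Stat2, at 10.63 to 28.08 and 7.42 to 17.96 FPKM, and Zbp1, at 6.74 to 26.57 and 1.98 to 15, overlapped as well. Eif2ak2 (-0.06 ± 0.11, limma adjusted p = 0.669), Oas1g (-0.34 ± 0.17, 0.123) and Ifi27 (-0.23 ± 0.15, 0.213) did not pass, as in controls.

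In mutants 16 of 38 members had all ascending libraries above all descending ones (5.62% of all genes). Within cages, the mutant median was -0.75 in cage A, -1.12 in B and -1.51 in C, with 37, 38 and 37 members lower in the descending colon. The exceptions were Ifi27 in cage A and Eif2ak2 in cage C. Without cage C 26 members and 28.9% of all genes passed.

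**Figure D3:**
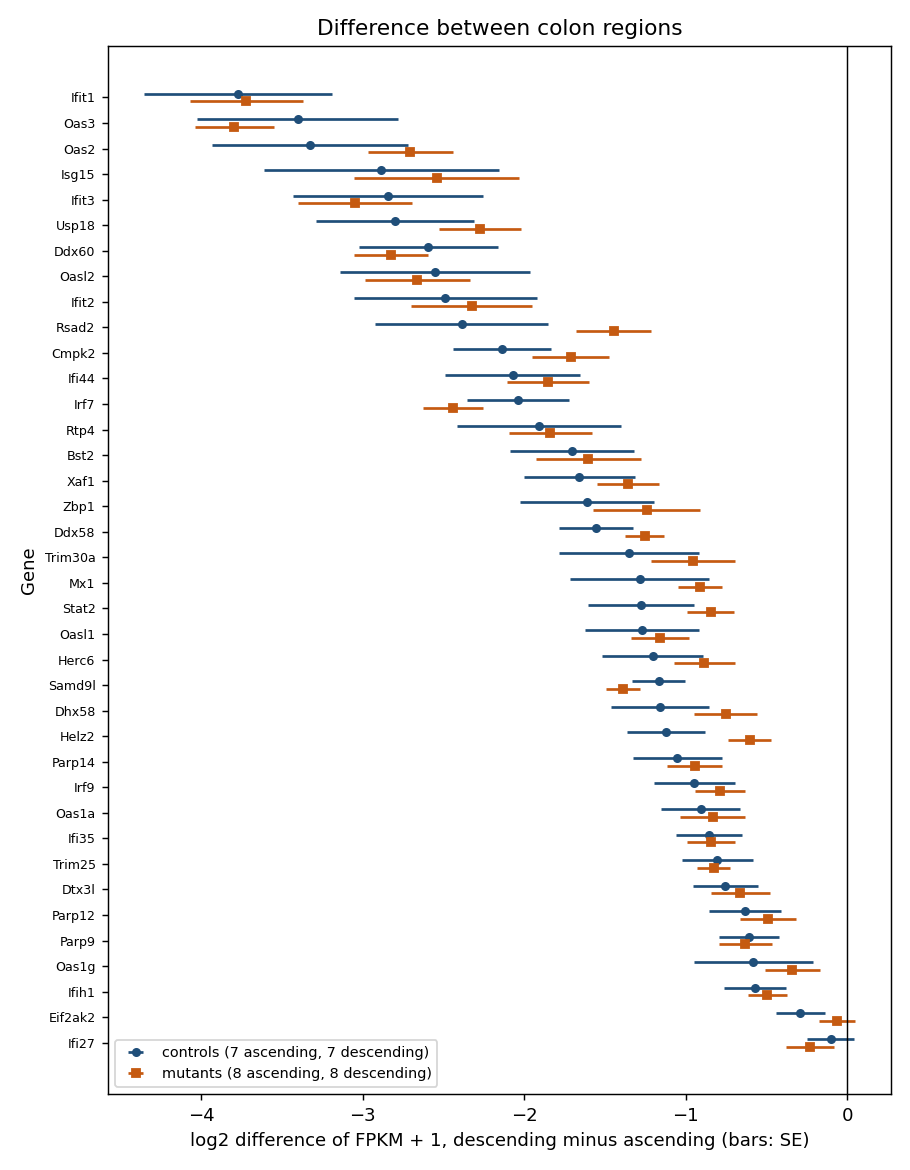
Log2 difference of FPKM + 1, descending minus ascending, for each of the 38 members, in controls (circles, 7 and 7 libraries) and mutants (squares, 8 and 8 libraries), with SE from limma. All points lie left of 0, from -3.80 for Oas3 in mutants to -0.06 for Eif2ak2 in mutants.

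Scaling shifted the whole table but not the members' direction. Under median-of-ratios scaling the median over all genes moved from 0.14 to 0.01 in controls, and the calls over all genes from 3146 higher and 1598 lower to 1883 and 2141. In mutants it moved from 0.16 to 0.03, and the calls from 3620 and 1748 to 2283 and 2325. Quantile normalization gave 2262 higher and 1941 lower in controls and 2282 and 2097 in mutants. All 38 members lay below 0 in both genotypes under each scaling, with 36 and 35 called under median-of-ratios scaling and 35 and 35 under quantile normalization. Read against the all-gene median, the members' median in controls was -1.32 against 0.14 as deposited and -1.45 against 0.01 after median-of-ratios scaling.

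The genes upstream of the response did not move as a block. The interferon genes themselves were not analysed here. Of 6 receptor genes only Ifngr1, the interferon-gamma receptor, passed in controls, and it was higher in the descending colon (0.48 ± 0.14, limma adjusted p = 0.0151). The type I receptor gene Ifnar1 was at 11.1 ± 0.885 FPKM in ascending controls and 9.85 ± 0.662 in descending controls (-0.15 ± 0.08, limma adjusted p = 0.144). The type III receptor gene Ifnlr1 was at 7.63 ± 2.18 and 8.45 ± 1.73 FPKM (0.15 ± 0.15, limma adjusted p = 0.438). Among further signal genes Irf1, a transcription factor induced by interferon, fell (-0.46 ± 0.15, limma adjusted p = 0.0282). Irf2, an antagonist of Irf1, rose (0.68 ± 0.13, limma adjusted p = 0.00145). In mutants Ifngr1 and Irf2 rose as well, but Irf1 did not pass (limma adjusted p = 0.0685). There the receptor gene Ifngr2 fell (-0.43 ± 0.14, limma adjusted p = 0.0176). In controls Ifngr2 lay below 0 too but did not pass (-0.23 ± 0.14, limma adjusted p = 0.191).

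Of 11 sensing genes outside the list, 4 fell and 1 rose towards the descending colon of controls. Tlr3, the endosomal receptor for double-stranded RNA, fell from 10.2 ± 0.562 to 4.59 ± 0.498 FPKM (n = 7 each, -1.01 ± 0.08, limma adjusted p = 1.49e-06). Its ranges, 9.07 to 10.65 and 3.59 to 5.08 FPKM, were far apart. Ticam1, its adaptor, Traf6 and Unc93b1 fell too, and Tmem173 (STING), the adaptor of cytosolic DNA sensing, rose (1.12 ± 0.25, limma adjusted p = 0.00325). Of 8 genes that restrain the response, Socs1 (-1.24 ± 0.26, limma adjusted p = 0.00215), Socs3 and Adar fell, and Ptpn2 and Samhd1 rose. In mutants Unc93b1 and Ptpn2 did not pass (limma adjusted p = 0.196 and 0.061), and the other sensing and restraining genes named here moved as in controls. Mavs and Irf2bp2 passed as higher and Ptpn6 as lower in mutants, and did not pass in controls. Their differences had the same sign in both genotypes. In controls and mutants they were 0.12 and 0.34 for Mavs, 0.28 and 0.32 for Irf2bp2, and -0.115 and -0.451 for Ptpn6. None of these genes passed in the fit of genotype by region described below, so a difference between the genotypes was not shown.

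Markers of other cells moved with region too. All 9 tested T cell markers fell towards the descending colon of controls, with the summed level of the 11 genes at 18.5 to 68.9 FPKM in ascending and 1.7 to 5.5 in descending controls. In mutants 8 of 8 fell (11.8 to 45.4 and 2.0 to 4.55). Over the descending libraries alone only 2 of the 11 genes reached the required mean of 0.5 FPKM. Most of the tested T cell markers thus entered through their ascending values, so the counts that fell were largely set in advance. Of 12 markers of absorptive colonocytes 6 fell and 3 rose in controls, with sums of 6564 to 12347 and 2357 to 5634 FPKM. Of 12 macrophage markers 2 rose, and the sums, 33.6 to 220 and 44.5 to 205 FPKM, overlapped. Of 9 smooth muscle markers 1 rose and 1 fell in controls, with sums of 29.5 to 436 and 33.2 to 450 FPKM. In mutants 8 rose and 1 fell, with sums of 20.3 to 67 and 42.4 to 290.0 FPKM. The part of these cells in the regional difference was not tested.

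Members with ISRE letters in the window had a lower median in controls, given as a description only. Of these, 10 of 11 passed with a median log2 difference of -2.39, and 17 of 18 members whose window lacked the letters passed with a median of -1.19. The letters lay as close to the start in Oas1a, which fell, as in Oas1g, which did not pass.

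Mutants were then compared with controls within each region, with cage as a covariate. In the ascending colon no member passed in limma (0 of 38, background 0.0% of all genes), and 7 of 38 had an unadjusted p under 0.05, against 11.5% of all genes. The differences leaned to one side, with 35 of 38 below 0 and a median of -0.37 against -0.05 over all genes. Of all 12178 genes tested 7468 lay below 0. Oas2 spanned 4.56 to 62.57 FPKM in controls and 3.02 to 19.01 in mutants, with controls B1 (62.57), C1 (62.33), C2 (24.2) and B3 (19.74) above every mutant (-0.92 ± 0.29, limma adjusted p = 0.3). Rsad2 spanned 6.93 to 70.68 and 4.78 to 19.81 FPKM (-0.997 ± 0.335, limma adjusted p = 0.325), and Stat2 12.42 to 52.54 and 10.63 to 28.08 (-0.52 ± 0.19, limma adjusted p = 0.348). In all 3 genes the ranges overlapped.

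By cage the ascending median was 0.02 in cage A, with 17 members lower and 21 higher in mutants, -0.72 in cage B and -0.42 in cage C. Without cage B it was -0.14, with array quality weights -0.10, and over the fits that left out 1 library it ran from -0.52 (without control A1) to -0.20 (without mutant B1). All 8 macrophage, 9 T cell, 9 fibroblast and 9 smooth muscle markers tested lay below 0 in the same comparison, with medians of -0.61, -0.47, -0.95 and -1.12 and none called. The part of these cells in the lower member values was not tested.

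In the descending colon none of 37 tested members passed in limma (background 0.0%), and 0 of 37 had an unadjusted p under 0.05, against 2.19% of all genes. Ifi44, a member of unclear function, was under the mean of 0.5 FPKM required there. The median difference was -0.20 against -0.037 over all genes. Of the members 32 were lower and 5 higher, and of all 12219 genes tested 7605 were lower. Ifit2 spanned 0.66 to 10.1 FPKM in controls and 0.54 to 1.32 in mutants (-0.70 ± 0.34, limma adjusted p = 0.999). Parp9 spanned 11.64 to 22.38 and 10.97 to 16.46 (-0.24 ± 0.13, 0.999), and Ifit3 0.64 to 7.39 and 0.0 to 2.62 (-0.57 ± 0.31, 0.999). The high control values of Ifit2 and Ifit3 came from libraries A1, A2 and B2. Without descending control A2 no member passed, and the median was -0.11 with 26 members lower and 11 higher. Without descending controls A2 and B2 the median was -0.01, with 16 members higher and 20 lower.

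The difference between the genotype effects of the regions was then tested with an interaction term, in a fit of the 30 libraries together. No member passed in limma (0 of 38, background 0.0%), and 0 of 38 had an unadjusted p under 0.05, against 1.6% of all genes. The median was 0.12 against 0.01 over all genes, with 26 members and 6481 of 12353 genes above 0. Without descending control A2 it was 0.27, with 30 above 0 and none called. It changed sign to -0.13 without cage B, to -0.04 when ascending control B1 was left out and to -0.03 when ascending mutant B1 was. The smallest p-values were those of Helz2, a helicase (0.49 ± 0.25), Rsad2 (0.85 ± 0.47) and Irf7 (-0.45 ± 0.33), each with a limma adjusted p of 1.

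Cage was a further axis in the ascending colon. All 38 members had their lowest cage mean on the log2 scale in cage A, and the highest was in cage C for 32 and in cage B for 6. These orders were not counted over all genes, and the members vary together between libraries. In a moderated F test over cages 6 of 38 passed (limma adjusted p under 0.05, background 1.32%), and 32 of 38 had an unadjusted p under 0.05, against 15.6% of all genes. Xaf1, a partner of apoptosis inhibitors, had means of 4.11 ± 1.75, 17.6 ± 12.5 and 15.6 ± 5.47 FPKM in cages A, B and C (SD, n = 5 each, F = 22.7, limma adjusted p = 0.00864). All 5 cage A libraries (1.91 to 6.27 FPKM) lay below all of cage B (10.08 to 39.83) and cage C (11.25 to 24.6). Oas2 had means of 5.68 ± 2.77, 24.7 ± 21.3 and 27.1 ± 20.1 FPKM (F = 17.7, limma adjusted p = 0.0178), again with cage A (3.02 to 10.12) below the other cages (12.89 to 62.57 and 13.23 to 62.33).

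Oas3 (F = 12.9), Oasl1 (F = 12.9) and Dhx58 (LGP2, a helper of RNA sensing, F = 12.8) each had a limma adjusted p of 0.0448, and Stat2 was the sixth. Oas3 had 3.78 to 19.94 FPKM in cage A, below 22.17 to 63.1 in B and 28.58 to 47.59 in C. Oasl1 had 15.01 to 34.86 FPKM in cage A, below 38.46 to 127.8 and 45.6 to 67.35. For Dhx58 cage A (3.26 to 8.17) overlapped cage B (6.77 to 27.73) and lay below cage C (11.72 to 20.65). In 23 of 38 members every cage A library lay under every cage C one, where 3.51% of all genes showed that order, a contrast of cages chosen after the values were seen.

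The number that passed depended on single libraries. The share of all genes called moved in the same fits, from 0.361% to 4.78%. When ascending control B1 was left out 20 members and 2.98% of all genes passed, and when ascending mutant B1 was left out 19 and 4.78%. Only Xaf1 passed without ascending control A1 (0.477% of all genes), mutant A2 (0.435%) or mutant A3 (0.361%). The count was 9 without mutant A1 and 8 without control B2 (1.03% and 1.47% of all genes). It was 3 without control A2, control B3 or mutant B2 (0.757% to 1.33%), and 2 without any 1 of the 5 cage C libraries (0.608% to 1.16%). Xaf1 passed in each of the 15 fits. The ascending mutants of cage A also had the lowest depth estimates, at 1.43 to 1.59 M reads, while the cage A controls were at 3.47 and 6.42 M.

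The descending colon had no such order. None of 37 members passed the F test over cages in limma (background 0.597%), with 2 at an unadjusted p under 0.05 against 13.2% of all genes. Cage C held the lowest mean for 30 of 38 members and cage A the highest for 27. These orders were not counted over all genes, and the cage A means include descending control A2. Rsad2 had means of 5.82 ± 5.24, 2.41 ± 1.12 and 1.71 ± 0.452 FPKM in cages A, B and C (n = 5 each, F = 5.73, limma adjusted p = 0.249), where the cage A mean includes 15.14 FPKM in control A2. Ifit3 (F = 4.15, 0.349) and Ifit1 (F = 3.6, 0.38) followed. Without descending control A2 none of 37 passed, against 0.766% of all genes. Whether the cage order differs between regions was not tested.

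**Figure D4:**
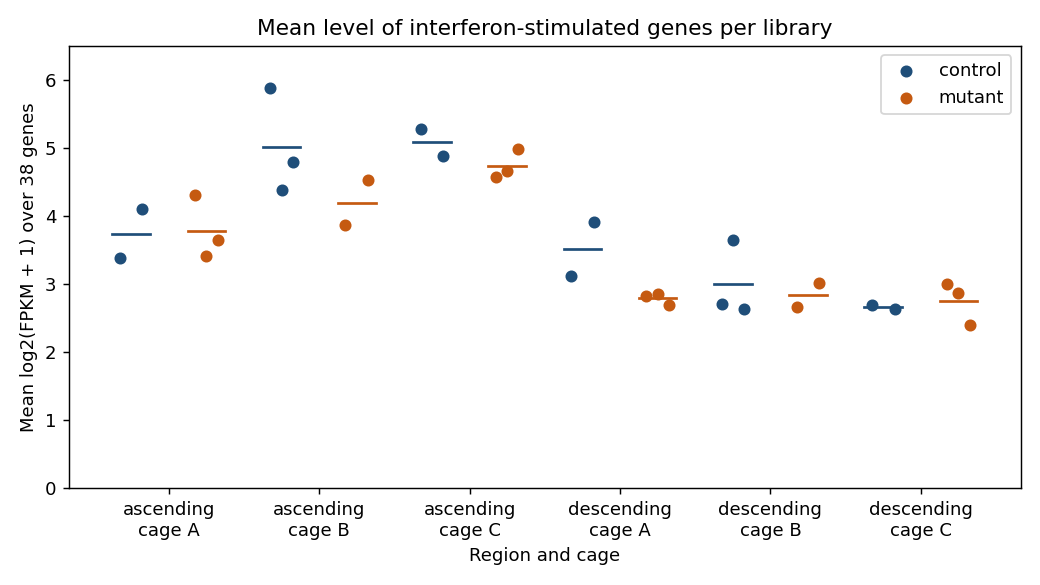
Mean log2(FPKM + 1) over the 38 members in each library (points; blue control, orange mutant), with short lines for the mean of each cage and genotype. The ascending libraries of cage A lie at 3.38 to 4.31, where the means over cages B and C are 4.69 and 4.88, and descending controls A2 (3.92) and B2 (3.65) stand above the other descending libraries.

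Genotype effects that differ by cage were tested in each region. In the ascending colon 0 of 38 passed in limma (background 0.0%) and 1 had an unadjusted p under 0.05, against 10.4% of all genes. That member was Samd9l (F = 5.54, limma adjusted p = 0.443), at 34.7 and 50.1 FPKM in cage A controls and mutants, 53.5 and 40.1 in cage B and 45.8 and 51.9 in cage C. In the descending colon 0 of 37 passed in limma (background 0.00818%) and 2 had an unadjusted p under 0.05, against 4.42% of all genes. These were Ddx58 (F = 4.33, limma adjusted p = 0.879) and Helz2 (F = 3.9, 0.879). Without descending control A1, 1 member (Mx1) and 1.08% of all genes passed. The cage A control arm is then the single library A2, with Mx1 at 7.8 FPKM, and it is assumed to vary like the other groups. No member passed without descending control A2.

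Last, it was asked how uniformly the members vary between libraries. In the ascending colon they moved nearly as a unit. Over the 15 ascending libraries, the 703 pairs of members had a median Pearson r of 0.854 (lowest 0.2), 96.4% of pairs exceeded 0.5, and the first principal component held 82.8% of the variance. The libraries share cage, genotype and depth differences, and after removing cage and genotype means the median was 0.797. Usp18 and Ifit1 followed the other members most closely (median r 0.918 and 0.922), and Samd9l and Ifi27 least (0.565 and 0.627). Amplitude differed more than order. The SD of log2(FPKM + 1) was 1.52 for Isg15 and 1.38 for Ifit2, against 0.34 for Eif2ak2 and 0.28 for Samd9l.

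In the descending colon the members varied less together. The median r was 0.563 over 15 libraries (lowest -0.504), 58.7% of pairs exceeded 0.5, and the first component held 57.1%. The median r was 0.459 without descending control A2. Without descending controls A2 and B2 the median r was 0.267 and the first component held 33.9%. Bst2 (tetherin, which holds budding virus at the cell surface) had a median r of 0.044 with the others in the 15 libraries. Its values there ran from 2.77 to 13.9 FPKM. Many descending values are near the floor of the assay, with Oas2, Usp18 and Ifi44 under 1 FPKM in most libraries, which limits what can be seen of their variation.

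Single libraries carried much of the spread. Ascending control B1 was the highest of the 15 ascending libraries for 36 of 38 members, at a median of 2.66 times the median of the others (0.92 times for Ifi27, 9.49 times for Isg15). It also had the highest summed smooth muscle (436 FPKM), epithelial (8904) and immediate early markers (736), and with 4.55 FPKM the highest ascending Hoxb13. Its T cell sum, 18.5 FPKM, was among the lower ones. Descending control A2 was highest for 20 members and descending control B2 for 13. A2 had the highest summed macrophage (205 FPKM) and dendritic cell markers (8.91) among the 15 descending libraries, and B2 the highest T cell sum (5.5).

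Ascending mutant B1 broke the common pattern. It was below the median of the other ascending libraries for 32 members and above it for 6, namely Oasl1, Mx1, Irf7, Stat2, Trim25 and Helz2. Irf7 was at 180.8 FPKM, 1.87 times that median, while Isg15 was at 12.19 FPKM, 0.183 times it. No other ascending library had members so unevenly placed (SD of the standardised member values 0.763, against at most 0.46).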

How the data were processed

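RNA (1 ug per sample) was depleted of ribosomal RNA, prepared with a Kapa kit and sequenced as single reads of 50 nt, per the labels' protocols. The deposited table holds FPKM computed by the authors, with 2 decimals. The submitters' processing notes name bcl2fastq 2.17, STAR, DESeq2 and GRCm38 (mm10). For the gene counter, strand setting, annotation and gene lengths, the sources used here give nothing. The files hold no read counts, so depth was estimated from the steps between low FPKM values and entered no test.

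Values were used as log2(FPKM + 1), so the fold changes of low genes are understated. Each fit tested the genes whose mean reached 0.5 FPKM in its libraries, with limma 3.58.1 in R 4.3.3 (eBayes with a trend), two-sided, with Benjamini-Hochberg adjustment over all genes and a threshold of 0.05. Genotype and region were fitted with cage as a covariate, and cage and genotype by cage with moderated F tests. The fits were tested on simulated data. Positions are from GENCODE M21 and promoters from RefSeq (GRCm38.p6).

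For each comparison at most 5 called members with the smallest adjusted p in each direction were named, or the 3 with the smallest p, with library values for Isg15, Ifit1, Oas2, Irf7, Stat2 and Zbp1. A gene of the signal list is not reported here. Members and lists were chosen with earlier results of these data known. Same-numbered libraries were compared by their deviations from the mean of their group of 2 or 3 libraries. The r was over 0.1 in 4 of 15 pairs across regions and 6 of 12 across genotypes. In groups of 2 libraries both pairs across regions have the same r by construction, so the check cannot exclude pairing. Numbers were not treated as pairs in the main fits. Alternatives changed the pseudocount (0.1), the filter (none, or 2 FPKM), the scaling (median-of-ratios or quantile), the weights of libraries, the cage covariate and the libraries fitted together, left out each library or cage, or added a replicate block. Leaving out ascending control B1, descending control A2 and B2 was added after seeing the data.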

Additional observations from a re-analysis of the deposited data

Results flagged for a closer look

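Within each region and genotype, 156 groups of 7 or 8 library values were searched for a library standing apart from the rest by its gap to the nearest value, a rule that chance meets in about 1 of 20 groups. It was met 4 times, where 7.8 would be met by chance. In descending control A2, Oas2 was at 9.94 FPKM (other controls 0.09 to 1.69), Mx1 at 7.8 (0.17 to 1.71) and Helz2 at 32.01 (13.07 to 18.89). This is the library whose Hoxd13 was near 0. Eif2ak2 was at 9.59 FPKM in ascending mutant A2, against 13.64 to 17.97 in the other ascending mutants.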

How the results depend on the processing

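Apart from single-library omissions, 148 alternative values of the comparisons' counts and medians kept the result and 7 moved it. For regions in controls the median member difference was -1.94 without cage A, and 7 and 13 of 38 members passed without cage B and without cage C (16.4% and 20.5% of all genes, against 37.9%). Leaving out 1 library gave 31 to 35 members, with 30.8% to 43.9% of all genes. Ifi27 turned to 0.027 without cage C. For cages in the ascending colon, 2 members passed with no filter (0.976% of all genes), 2 with median-of-ratios scaling (1.16%) and 31 with array quality weights (13%), against 6 and 1.32%. With 1 library left out 1 to 20 passed (0.361% to 4.78%). For genotype by cage in the descending colon the range was 0 to 1. The median pairwise r of the descending colon was 0.267 without descending controls A2 and B2. The causes were not tested. For the single genes named, 380 alternative values kept their side of the threshold, 3 crossed to pass and 6 ceased to pass. In the 15 fits without 1 ascending library, Oas2 missed the threshold over cages in 3, Oasl1 in 10 and Oas3 and Dhx58 in 11 each.

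A replicate block was numbered as in the sample titles. With it, 31 of 38 members passed between regions in controls (33.8% of all genes) and 35 in mutants (42.8%). For genotype in either region, genotype by region and genotype by cage, 0 members and 0% of all genes passed. Among 15 ascending libraries, 4 correlated best with the descending library of their own number. The test over cages could not be fitted with the block, since a block lies within 1 cage.

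Estimated depth was lowest in ascending mutants of cage A, and FPKM near 0 in the descending colon limit what can be seen of Ifi44, Usp18 and Oas2.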
